A study of Mus musculus with 30 samples.

Results

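The glucocorticoid receptor gene Nr3c1 and 9 genes that its hormone is known to induce, namely Fkbp5, Tsc22d3, Zbtb16, Sgk1, Cebpb, Cebpd, Mt1, Mt2 and Glul, were followed in the gastrocnemius muscle of mice kept on a stable or on a repeatedly shifted light schedule. They were picked by gene symbol from textbook knowledge of the pathway, with earlier results of these data known. They are 10 of the 56951 symbols in the tables and 10 of the 12030 genes with enough reads to be tested. Each symbol had 1 row, and all 10 passed the filter on low values, with a mean of 215.3 reads per mouse for Mt2 up to 9521 for Glul. All mice were male, wild-type C57BL/6J, adult at the start and aged at the end, and each lived alone with a running wheel. The 14 LD mice stayed on a fixed light-dark cycle with light from 8 to 20 h, and the 16 ADV mice had that cycle advanced by 8 h every 4 days, in both cases for 64 weeks. Every mouse had first passed a stretch of constant darkness. The gastrocnemius was taken with the attached plantaris, and poly(A) RNA was sequenced, 1 library per mouse. The paper collected tissue over many hours of the light period, when both groups shared the same light times. The collection time of each mouse is not given in the labels.

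Corticosterone, the glucocorticoid of the mouse, is secreted by the adrenal gland with a daily rhythm and in bursts under stress. Inside the cell it binds the receptor encoded by Nr3c1, which is held ready by HSP90 chaperones, moves into the nucleus and switches on genes that carry its binding element. In skeletal muscle the hormone is known for its part in amino acid release, glutamine export and wasting, and several of its induced genes are read as tissue records of recent hormone exposure. Corticosterone itself was not measured here.

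The binding element of the receptor is a palindrome, AGAACA and TGTTCT separated by 3 bases, and most natural sites keep its inner part, here called the core (GNACA and TGTNC with 3 bases between them, N being any base). The DNA within 5000 bases on either side of each transcript start was searched in GRCm39, the build of the tables. The core reads the same on both strands, so 1 search covers both. The sites below are shown because each is the match nearest to the start in a target that had one, with the core in capitals, 8 bases of flank on each side, the strand of the gene, and the distance from its start (negative where upstream).
Sgk1, chr10:21869593-21869621, plus strand, -958 bases from the start: tgcggaaaGAACAGAATGTTCtcggagat
Fkbp5, chr17:28737146-28737174, minus strand, -662 bases from the start: ctcgcccgGGACATTGTGTTCcagcccca
Mt1, chr8:94905615-94905643, plus strand, -81 bases from the start: cactatagGGACATGATGTTCcacacgtc
Mt2, chr8:94898156-94898184, plus strand, -1122 bases from the start: agctgcgaGGACAGCCTGTCCtgttacaa
Glul, chr1:153777364-153777392, plus strand, 1688 bases from the start: ttggaggaGAACAATATGTTCcctctcca
Cebpd, chr16:15707690-15707718, plus strand, 2554 bases from the start: gggttcctGGACATTTTGTTCccaacaac

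A core match lay in this window in 6 of the 9 targets and in 15.69% of the 12029 tested genes that could be searched. The full palindrome lay in the window of 17 genes (0.14%), and Sgk1 was the 1 target among them. Fkbp5 had 4 core matches, Glul, Mt1 and Mt2 had 2 each, with 1 shared by both metallothionein genes, and Tsc22d3, Zbtb16 and Cebpb had none in this window. In the 250 bases before the start a core was found in 0.27% of genes and, among the targets, in Mt1. By GENCODE vM39 the printed Sgk1, Fkbp5 and Glul sites fall in introns of those genes, the first and second through transcripts that start farther upstream, and the Cebpd site in its untranslated exon sequence. The printed Mt1 and Mt2 sites overlap exons of noncoding genes. These are matches of letters, and binding was not measured.

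None of the 10 genes differed between the groups at an FDR under 0.05 (edgeR quasi-likelihood test, Benjamini-Hochberg adjustment over 12030 genes), against 10.8% of all genes tested. A fold change over 1.3 in addition was met by 2.09% of all genes and by 0 of the 10. At an unadjusted p under 0.05 there was 1 of the 10, Cebpb (p = 0.00591), and 3624 of all genes, and DESeq2 also called Cebpb alone. The median log2 fold change (ADV minus LD) was 0.07 over the 10 genes and 0.00 over all genes tested. In both groups the targets spread more between mice on the same schedule than most genes tested, as did some genes of other lists. This is described after the levels. The mice were collected at different hours, so this spread cannot be told apart from an effect of the hour of collection. Fewer cells of a type and less RNA per cell cannot be told apart in such bulk samples.

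**Figure D1:**
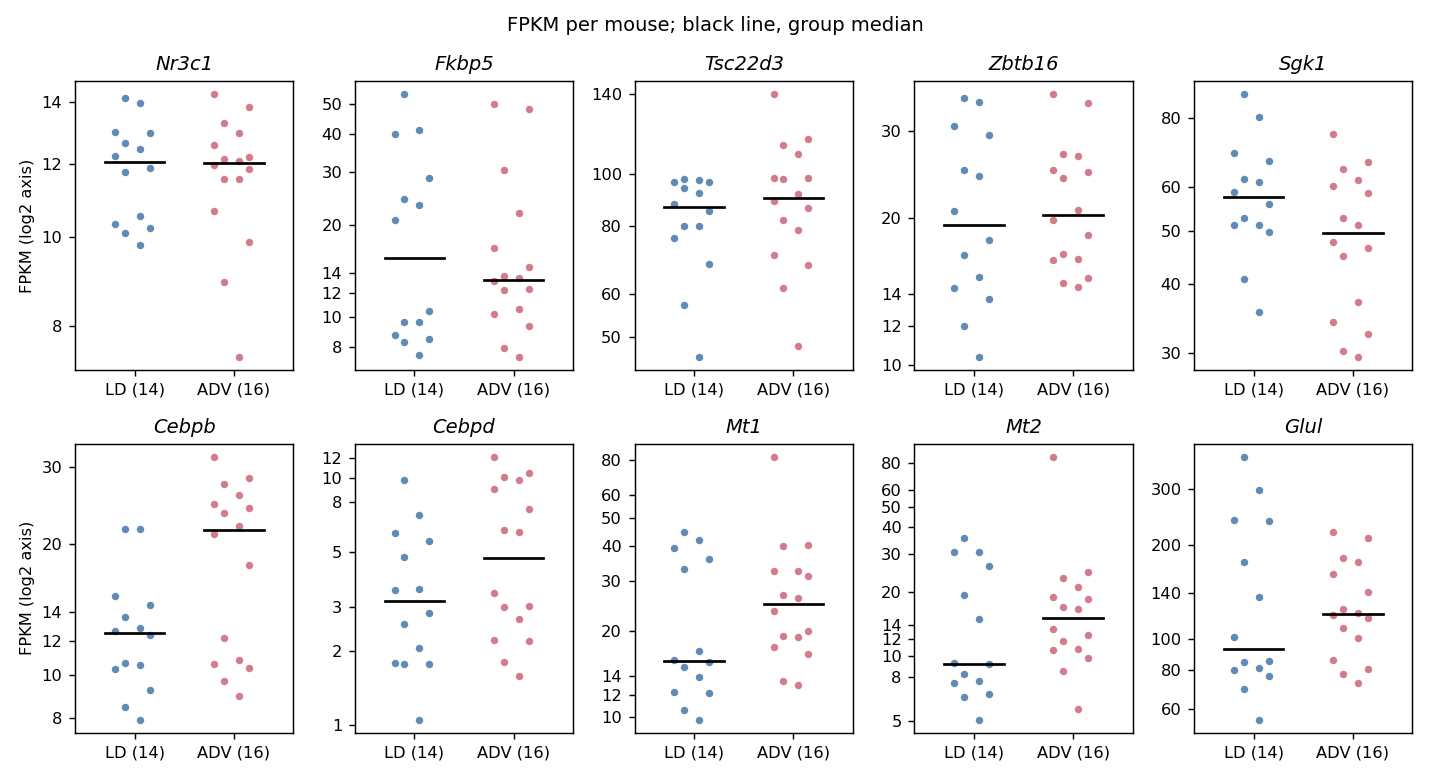
FPKM of the receptor gene and its 9 targets in each mouse on a log2 axis, 14 LD mice in blue and 16 ADV mice in red, with the group median as a black line. The groups overlap for every gene; Cebpb reached higher values in ADV, where 8 of 16 mice lay above the highest LD mouse, and 1 ADV mouse stood apart in Mt1 and Mt2.

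Nr3c1 was steady. FPKM (reads scaled by exon length and by library total, comparable between genes) ran from 9.79 to 14.1 with a median of 12.0 in LD, and from 7.41 to 14.3 with a median of 12.0 in ADV. The ranges overlapped almost fully, and 2 ADV mice fell below the lowest LD mouse. The log2 fold change was -0.03 with a 95% confidence interval of -0.18 to 0.11 (FDR 0.783). Among the 10 genes it was the least variable, with an SD of log2 CPM (counts scaled to library size, TMM-normalized) of 0.17 in LD and 0.24 in ADV. An annotated noncoding gene on the other strand, Gm58395, shares 1165 of its exon bases. Whether the counting used strand is not given in the sources used here, although the libraries were stranded.

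Fkbp5 encodes a co-chaperone of the receptor that lowers its hormone affinity, a feedback inhibitor of the pathway. Its FPKM ran from 7.48 to 54.0 in LD (median 15.6) and from 7.39 to 50.1 in ADV (median 13.3). The LD mice fell apart into 7 mice between 7.48 and 10.46 and 7 mice between 20.8 and 54.0, with none between, whereas most ADV mice filled the range from 7.39 to 21.96 and 3 of them, ADV mice 34, 31 and 22, lay at 30.4, 48.2 and 50.1. The log2 fold change was -0.22 (-0.90 to 0.45, FDR 0.68). It was -0.03 without LD mouse 33, -0.41 without ADV mouse 22 and -0.02 with the label number as a covariate. From the lowest to the highest mouse the level spanned 7.22-fold in LD and 6.78-fold in ADV.

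Tsc22d3, the gene of the anti-inflammatory leucine zipper protein GILZ, ran from 46.0 to 98.0 FPKM in LD (median 86.7) and from 48.1 to 140 in ADV (median 90.4). Although 6 ADV mice exceeded the highest LD mouse, the log2 fold change was 0.12 (-0.14 to 0.37, FDR 0.552). Zbtb16 encodes the zinc finger repressor PLZF. It ran from 10.4 to 35.02 FPKM in LD (median 19.3) and from 14.4 to 35.7 in ADV (median 20.3). Its log2 fold change was the smallest of the 10, 0.01 (-0.35 to 0.37, FDR 0.972).

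Sgk1 encodes a kinase of ion transport and cell survival that hormone-bound receptor induces within a short time. It was lower in more ADV mice, from 35.6 to 88.3 FPKM in LD (median 57.4) and from 29.5 to 74.8 in ADV (median 49.5). In ADV 4 of 16 mice lay below the lowest LD mouse and none above the highest. The log2 fold change was -0.26 (-0.55 to 0.03, p = 0.0745, FDR 0.211), so the difference did not pass the test.

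Cebpb and Cebpd encode C/EBP transcription factors that the hormone induces and that also answer cytokines. Cebpb ran from 7.91 to 21.7 FPKM in LD (median 12.5) and from 8.94 to 31.7 in ADV (median 21.5). The ADV mice formed 2 sets, 6 mice between 8.94 and 12.2, all within the LD range, and 10 mice between 17.9 and 31.7, of which 8 exceeded every LD mouse. The log2 fold change was 0.56 (0.17 to 0.95), a 1.48-fold higher level, with an FDR of 0.0522 by edgeR and 0.0409 by DESeq2, so the choice of test decides this call. It was also decided by single mice, since leaving out any 1 of 8 of the 30 mice (LD 31 or 32, ADV 21, 26, 27, 28, 29 or 36) brought the FDR to between 0.0328 and 0.0418. Without any other single mouse the FDR stayed above 0.05, at up to 0.0856. By limma it was 0.0761 and 0.075, and by edgeR in the 28 mice whose numbers occur in both groups it was 0.134. After GC-dependent bias was taken out library by library, the log2 fold change was 0.34 (FDR 0.219), and adjustment for a score of clock genes gave 0.49 (FDR 0.513). That score runs with the group, as described below. The single exon of Cebpb shares 20.7% of its bases with Peds1 on the other strand.

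Cebpd ran from 1.05 to 9.81 FPKM in LD (median 3.18) and from 1.58 to 12.1 in ADV (median 4.74). Its log2 fold change of 0.55 was as large as that of Cebpb, but the interval from -0.12 to 1.22 was wider (FDR 0.258), and 3 ADV mice exceeded the highest LD mouse. Spidr on the other strand shares 563 of its exon bases.

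Mt1 and Mt2 encode metallothioneins, small cysteine-rich proteins that bind zinc and copper and that respond to metals as well as to the hormone. Mt1 ran from 9.79 to 44.7 FPKM in LD (median 15.7) and from 12.99 to 81.8 in ADV (median 24.9). Mt2 ran from 5.05 to 35.8 FPKM in LD (median 9.24) and from 5.67 to 85.3 in ADV (median 15.1). For each gene 14 of 16 ADV mice lay above the LD median, but the LD group had a tail of its own, with 5 LD mice between 33.02 and 44.7 FPKM of Mt1. The log2 fold changes were 0.30 (-0.23 to 0.83, FDR 0.456) and 0.27 (-0.41 to 0.95, FDR 0.619). ADV mouse 28 held the highest value of both, 81.8 and 85.3 FPKM, against 40.2 and 24.8 FPKM in the next highest ADV mice. Without this mouse the log2 fold change of Mt2 was -0.08 and that of Mt1 0.11. The longest run of identical sequence in the 2 transcripts was 20 bases, shorter than the reads of 101 bases. A noncoding gene on the other strand, Gm45774, shares 52.1% of the exon bases of Mt2 in GENCODE vM39, so the Mt2 level is uncertain if counting ignored strand.

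Glul encodes glutamine synthetase, the enzyme with which muscle makes glutamine for export. By median FPKM it was the most abundant of the 10 genes in LD and in ADV. FPKM ran from 55.5 to 380 in LD (median 93.5) and from 72.6 to 219 in ADV (median 120). Both the lowest and the highest levels were LD mice. The log2 fold change was -0.22 (-0.73 to 0.30, FDR 0.595), although 12 of 16 ADV mice lay above the LD median. This opposition of the fold change and the median comes with 4 LD mice, 29, 31, 32 and 33, between 237 and 380 FPKM, above all ADV mice. Without LD mouse 33 it was -0.02, and adjustment for the score of clock genes turned it to 0.29 (FDR 0.803).

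**Figure D2:**
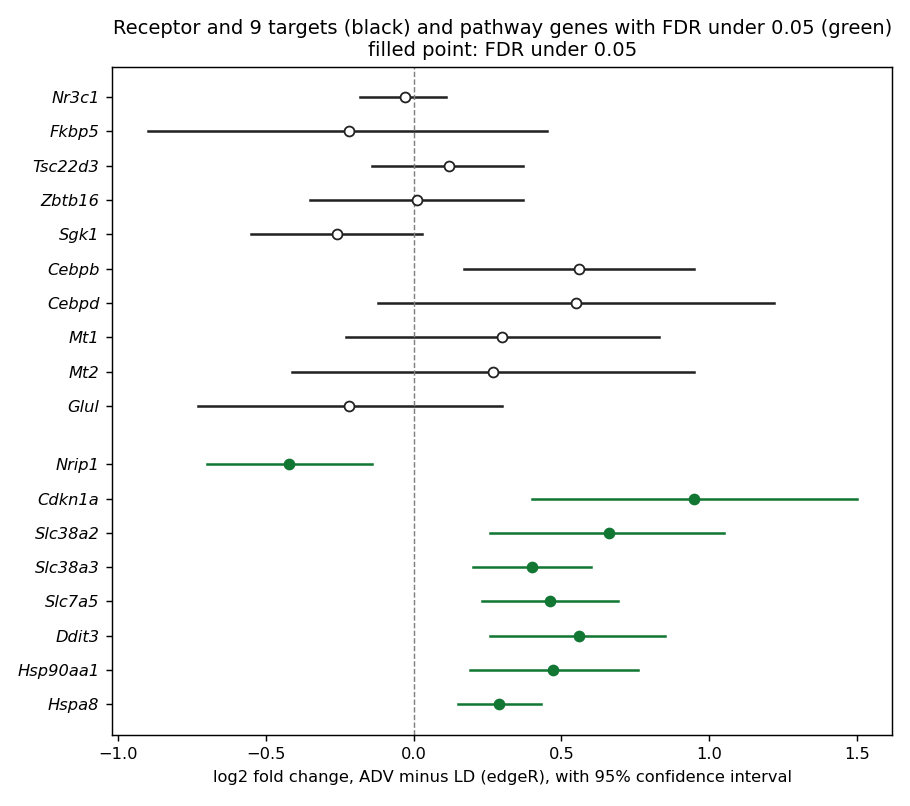
Log2 fold change (ADV minus LD) from edgeR with 95% confidence intervals for the receptor gene and its 9 targets in black and for 8 further genes of the pathway lists with an FDR under 0.05 in green. The intervals of 9 of the 10 black genes include 0, and that of Cebpb runs from 0.17 to 0.95.

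The rest of the pathway was read from 7 lists with 71 genes, of which 66 were tested. The test called 9 of them, 8 higher and 1 lower in ADV, against 5.61% of all genes called higher and 5.2% called lower, and the median log2 fold change over the 66 genes was 0.04. Among genes for hormone handling 0 of 4 tested were called by edgeR. They include Hsd11b1, whose enzyme regenerates active hormone inside the cell and whose FPKM had a median of 7.10 in LD and 7.14 in ADV (log2 fold change -0.02, FDR 0.881), and H6pd, the supplier of its cofactor (-0.08, FDR 0.39). Abcb1a, an efflux pump that also carries steroids, had a log2 fold change of 0.15 (FDR 0.221).

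Receptor chaperones were called in 2 of 10, both higher in ADV, with a list median of 0.08. Hsp90aa1, the inducible HSP90, ran from 8.52 to 21.9 FPKM in LD (median 13.1) and from 12.6 to 32.8 in ADV (median 19.1), a log2 fold change of 0.47 ± 0.14 (SE, FDR 0.0291). Hspa8, the constitutive HSP70 that loads the receptor, ran from 285 to 404 FPKM in LD (median 337) and from 306 to 543 in ADV (median 410), and 9 of 16 ADV mice exceeded every LD mouse (0.29 ± 0.07, FDR 0.0103). The far more abundant Hsp90ab1 had medians of 445 and 469 FPKM (0.06, FDR 0.297), and the cofactor Bag1 stood at 0.07 (FDR 0.29). The call of Hsp90aa1 was lost without LD mouse 28 or ADV mouse 25, at an FDR of 0.0508 and 0.0528. It was also lost with the label number as a block (FDR 0.146), a fit in the 28 mice whose numbers occur in both groups.

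Among coregulators of the receptor, Nrip1, which encodes the corepressor RIP140, fell by 0.42 on the log2 scale (SE 0.14, FDR 0.0468). Its FPKM ran from 2.86 to 8.43 in LD (median 4.58) and from 1.50 to 5.54 in ADV (median 3.41). Leaving out any 1 of 19 of the 30 mice lost this call, with FDRs up to 0.0891 without LD mouse 33. The Nrip1 call was also lost with library size alone (FDR 0.0548), by limma (0.0578 and 0.0558) and after GC correction (0.10), and adjustment for the clock gene score turned the log2 fold change to 0.03 (FDR 0.954). The corepressor Ncor1 stood at -0.03 (FDR 0.696), and the chromatin remodeler Smarca4 stood at 0.01 (FDR 0.863).

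Further hormone targets were called in 1 of 30, with 16 above 0 and 14 below and a median of 0.04. The gene called was Cdkn1a, which encodes the cell cycle inhibitor p21 and also answers p53. It ran from 5.26 to 17.8 FPKM in LD (median 10.7) and from 6.38 to 63.0 in ADV (median 19.1), with 9 of 16 ADV mice above every LD mouse (0.95 ± 0.27, FDR 0.0241). By limma the FDR of Cdkn1a was 0.0541 and 0.0527, and with the label number as a block it was 0.0812. Adjustment for the clock gene score left a log2 fold change of 0.04 (FDR 0.976). The most abundant of the list did not pass. Pdk4, the kinase that holds back pyruvate oxidation, stood at 0.22 (FDR 0.73), Trim63, the ubiquitin ligase MuRF1 of muscle wasting, at 0.28 (FDR 0.517), and Txnip, an inhibitor of glucose uptake, at -0.14 (FDR 0.603).

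In the list of glutamine handling 3 of 5 genes were called, all higher in ADV, with a list median of 0.40. Slc38a2 and Slc38a3, transporters that move glutamine across the cell membrane, stood at 0.66 ± 0.19 (FDR 0.0276) and 0.40 ± 0.10 (FDR 0.0107). Slc38a3 ran from 18.6 to 41.0 FPKM in LD (median 30.9) and from 30.7 to 57.2 in ADV (median 41.5), and 9 of 16 ADV mice exceeded every LD mouse. Slc7a5, a large amino acid transporter that trades glutamine for leucine, was near the lower limit of testing, with medians of 0.596 and 0.822 FPKM (0.46 ± 0.11, FDR 0.0111). Slc1a5 stood at 0.24 (FDR 0.419). The call of Slc38a2 was lost without ADV mouse 25 (FDR 0.0528). With the label number as a block the calls of Slc38a2 (FDR 0.0773) and Slc7a5 (FDR 0.0531) were lost. Among 3 further C/EBP genes tested, Ddit3, which encodes CHOP of the stress response, rose by 0.56 ± 0.14 (FDR 0.015, and 0.078 with that block). Cebpg stood at 0.03 (FDR 0.779) and Cebpa at 0.35 (FDR 0.309). Of 4 genes for zinc and metallothionein control none was called by edgeR, with Mtf1, the metal sensor that drives metallothionein genes, at 0.03 (FDR 0.746), Slc39a14 at 0.02 (FDR 0.942) and Slc39a10 at 0.20 (FDR 0.267).

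Several measures of the samples moved with the group and bear on these values. All 7 clock genes that peak against Bmal1 were called lower in ADV and 3 of 5 that peak with it were called higher. Once a score of these genes entered the model, 0 genes of 12030 passed edgeR's FDR, with 1427 at an unadjusted p under 0.05. The score is built from genes that differ between the groups, and ran from -3.17 to 1.10 in LD and from -1.33 to 2.30 in ADV. It takes up much of the group difference, so a call lost with it cannot tell clock phase from schedule. This holds for each value given with the score. Since corticosterone and several of its targets follow the time of day, clock phase and schedule cannot be told apart in these levels. The summed FPKM of 6 heat shock genes was 401 to 927 in LD and 655 to 1433 in ADV, with 5 of 6 genes called higher, and that of immediate early genes 52.9 to 103 and 64.2 to 333, with 6 of 9 called higher. Both lists contain genes of general stress, and their part in the results above was not tested. The 6 muscle fiber markers summed to 33580 to 44560 FPKM in LD and 32040 to 40780 in ADV with 0 called. Adipocyte markers spanned 8.72 to 77.2 FPKM in LD and 5.86 to 212 in ADV, with 0 of 5 called, and fibroblast markers 257 to 334 and 220 to 348, with 1 of 5 called lower. Markers of leukocytes (4 tested) and Schwann cells (5 tested) had 0 called and those of endothelium 1 of 5. Exon reads per library ranged from 18875468.5 to 28512674 over all 30 mice and overlapped between the groups.

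The targets varied between mice of 1 group far more than most genes. The median SD of log2 CPM over all genes tested was 0.18 in LD and 0.20 in ADV. Fkbp5 had an SD of 1.02 in LD and 0.84 in ADV, Mt2 0.98 and 0.84, Cebpd 0.92 and 1.02, Glul 0.90 and 0.52, Mt1 0.80 and 0.66, Zbtb16 0.60 and 0.44, Cebpb 0.44 and 0.65, Sgk1 0.37 and 0.45, and Tsc22d3 0.34 and 0.40. Each of the 9 targets lay at or above the 84.7th percentile of all genes in both groups, with Fkbp5 at 99.6 in LD and 99.2 in ADV, whereas Nr3c1 lay at the 48.6th and 63.4th percentile. Ordered by SD, Fkbp5, Cebpd and Mt2 were the most variable of the 10 in each group. Wide spread was not particular to the targets. The highest over the lowest FPKM was 38.4 in LD and 85.8 in ADV for the adipocyte marker Lep. It was 23.6 and 14.8 for the fiber marker Myh7, and 15.4 and 16.5 for the clock gene Ciart. Other list genes spread less, such as Acta1 at 1.27 in each group.

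The same LD mice tended to be high for several targets at once. LD mouse 33 held the highest LD value of 6 of the 9 targets and was among the 3 highest for all 9, with 54.0 FPKM of Fkbp5, 88.3 of Sgk1, 35.8 of Mt2 and 380 of Glul. LD mouse 31 was among the 3 highest for 7 targets and LD mouse 32 for 5. At the other end, LD mouse 21 was among the 3 lowest for 7 targets, and LD mice 23 and 27 for 6 each. In ADV, mice 25 and 30 lay above the group median for all 9 targets, as LD mice 32, 33 and 35 did in LD. ADV mouse 30 was among the 3 highest for 7 targets, ADV mice 22 and 31 for 5 each, and ADV mouse 26 among the 3 lowest for 6, while ADV mouse 28 combined the top metallothionein values with the lowest ADV values of Cebpb and Glul.

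**Figure D3:**
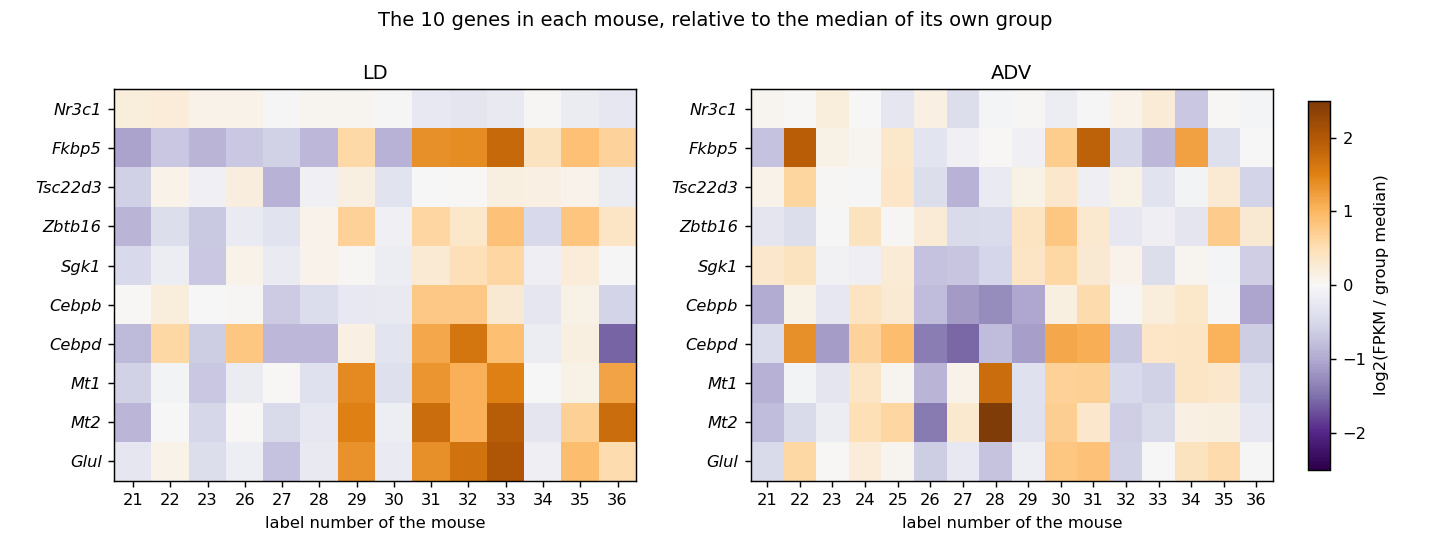
The 10 genes in each mouse as log2 of FPKM over the median of the mouse's own group, mice in the order of their label numbers. In LD mice 21, 23 and 27 are among the 3 lowest for 6 or 7 of the 9 targets and mice 31 to 33 are high, with Nr3c1 running the other way; in ADV mouse 28 is high for Mt1 and Mt2 and low for the C/EBP genes and Glul.

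Correlations between the 10 genes were computed over mice within each group on log2 CPM, for 45 pairs in each of 2 groups. The p-values are from 100000 permutations, two-sided, and were adjusted over all 90 relations. Over all mice of a group, 24 of 45 pairs passed an adjusted p under 0.05 in LD, 19 of them positive and 5 negative, the latter all with Nr3c1, and 8 pairs passed in ADV, all positive. An r over 0.5 was found in 24 of 45 pairs in LD (53.3%), against 7.63% of all pairs of tested genes, and in 13 of 45 in ADV (28.9%), against 7.14%. These points share library, depth, hour of collection and composition of the tissue, and the genes were picked for a shared regulator, so the counts describe these mice.

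Several genes divided the mice into clusters, which a pooled r would join into a line. A gap of at least 0.25 of the range on the log2 scale, with 4 or more mice on each side, was seen for Fkbp5 (7 and 7 mice), Mt1 (9 and 5) and Mt2 (8 and 6) in LD, and for Cebpb (6 and 10) and Cebpd (8 and 8) in ADV. This limit was set after the data were seen, and Mt2 and Cebpd lay close to it at 0.26 of the range. Of the pairs without such a gene, 9 of 21 passed in LD and 3 of 28 in ADV, so that 15 of the 24 LD calls and 5 of the 8 ADV calls involve a gene with clusters. Pooled values are therefore given below for pairs without such a gene, and values within clusters of at least 6 mice for the others.

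**Figure D4:**
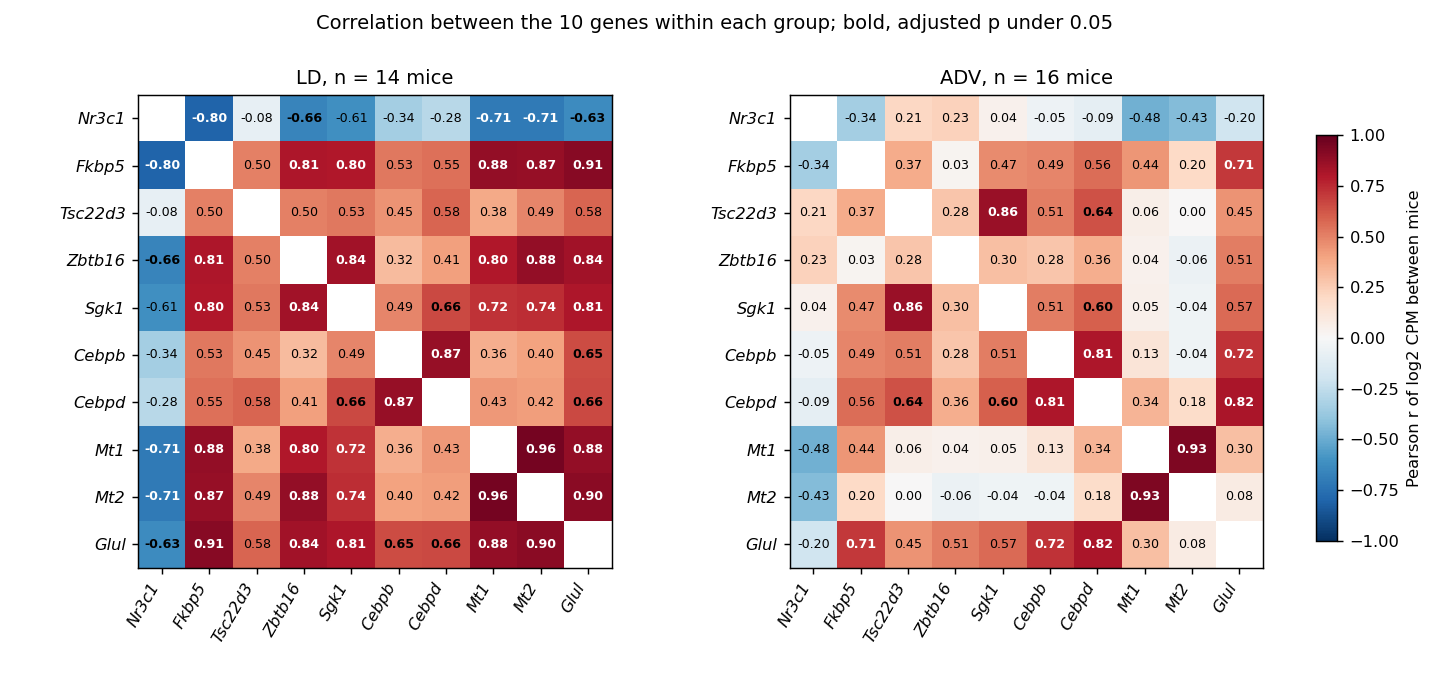
Pearson r between the 10 genes over the 14 LD mice and over the 16 ADV mice on log2 CPM, red for positive and blue for negative, bold where the adjusted p is under 0.05. In LD all 36 pairs of targets are positive and the Nr3c1 row is negative; in ADV 32 of 36 target pairs are positive. The values are over all mice of a group, also for Fkbp5, Mt1 and Mt2 in LD and Cebpb and Cebpd in ADV, whose mice form clusters.

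In LD the pairs without clusters that passed joined Glul, Sgk1 and Zbtb16, and the C/EBP genes. Zbtb16 and Glul had r = 0.84 (rho = 0.78, permutation p = 0.00026 and 0.00139, adjusted 0.00167 and 0.00657, n = 14), and r was 0.81 without the 2 mice farthest from the median of Zbtb16. Zbtb16 and Sgk1 had r = 0.84 (rho = 0.83, permutation p = 0.00015 and 0.00039, adjusted 0.00135 and 0.00292), with 0.75 without the 2 extreme mice of Zbtb16. Sgk1 and Glul had r = 0.81 (rho = 0.81, permutation p = 0.00024 and 0.00084, adjusted 0.00166 and 0.00471), with 0.75 without the 2 extreme mice of Sgk1. These 3 genes of different function, a repressor, a kinase and an enzyme, thus tended to be high and low in the same mice. Zbtb16 and Glul, however, had r = 0.19 in the 6 LD mice numbered 21 to 28 and 0.80 in the 8 numbered 29 to 36.

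Cebpb and Cebpd had r = 0.87 in LD (rho = 0.87, permutation p = 7e-05 and 0.00012, adjusted 0.000787 and 0.00135, n = 14), with 0.78 without the 2 extreme mice of Cebpb. Glul followed both, at r = 0.65 with Cebpb (rho = 0.58, adjusted permutation p = 0.0367 and 0.0743) and 0.66 with Cebpd (rho = 0.71, adjusted permutation p = 0.0367 and 0.0201). The first of these fell to 0.48 without the 2 extreme mice of Cebpb. Sgk1 and Cebpd had r = 0.66 (rho = 0.70, adjusted permutation p = 0.0322 and 0.0212). The receptor gene ran against Zbtb16 (r = -0.66, rho = -0.66, adjusted permutation p = 0.0367 and 0.0318) and Glul (r = -0.63, rho = -0.56, adjusted permutation p = 0.0454 and 0.0888). These calls rested on single mice. Of the 14 fits that left out 1 LD mouse, the adjusted p of r was above 0.05 in 8 for Glul with Cebpb and with Cebpd, in 4 for Sgk1 with Cebpd, in 6 for Nr3c1 with Zbtb16 and in 10 for Nr3c1 with Glul. Tsc22d3 was in none of the 24 LD pairs, with r between 0.38 and 0.58 to the other targets. By rho it passed with Cebpd (rho = 0.71, adjusted permutation p = 0.0212), Glul (rho = 0.68, 0.026) and Sgk1 (rho = 0.67, 0.0303).

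In ADV 3 pairs without clusters passed. Tsc22d3 and Sgk1 had r = 0.86 (rho = 0.86, permutation p = 4e-05 and 6e-05, adjusted 0.00072 and 0.00135, n = 16), and r was 0.84 without the 2 mice farthest from the median of Tsc22d3. Fkbp5 and Glul had r = 0.71 (rho = 0.69, permutation p = 0.00193 and 0.00454, adjusted 0.00827 and 0.017), which fell to 0.57 without the 2 extreme mice of Fkbp5. Mt1 and Mt2 had r = 0.93 (rho = 0.91), at 1e-05, the smallest p these permutations can give, for both, and 0.87 without the 2 extreme mice of Mt1.

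Within clusters, 0 of 90 relations, with the other genes and with the label number of the mouse, passed adjustment for r, 50 of them in LD and 40 in ADV, and 14 had an unadjusted permutation p under 0.05. By rho 1 relation passed, Mt1 and Fkbp5 in the 9 LD mice with low Mt1 (rho = 0.95, permutation p = 0.00046, adjusted 0.0414), where r was 0.76 (adjusted permutation p = 0.164). With 6 to 10 mice in each cluster, only a large r can be told from 0. Splitting the mice on 1 gene of a pair also narrows the range of that gene, which can lower r. These values therefore cannot tell separate clusters from 1 line through all mice. Fkbp5 and Glul in LD had r = -0.10 in the 7 mice with low Fkbp5 (permutation p = 0.842) and 0.85 in the 7 with high Fkbp5 (permutation p = 0.0137, adjusted 0.164), in which Glul ran from 85.6 to 380 FPKM. Fkbp5 and Sgk1 had r = 0.53 and 0.96 (permutation p = 0.223 and 0.00134, the latter adjusted 0.121), and Fkbp5 and Nr3c1 had -0.31 and -0.56 (permutation p = 0.488 and 0.193). Fkbp5 and Mt1 had r = 0.88 in the low Fkbp5 mice (permutation p = 0.0105, adjusted 0.164) and 0.52 in the high ones. Mt1 and Mt2 had r = 0.71 in the 9 LD mice with low Mt1 (permutation p = 0.0285, adjusted 0.214).

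In the ADV clusters of the C/EBP genes, Cebpb and Cebpd had r = 0.07 in the 6 mice with low Cebpb and 0.61 in the 10 with high Cebpb (permutation p = 0.90 and 0.063). Cebpd and Glul had r = -0.04 in the 8 mice with low Cebpd and 0.68 in the 8 with high Cebpd (permutation p = 0.926 and 0.0669). In the latter 8 mice Cebpd also ran with Tsc22d3 (r = 0.81, permutation p = 0.0194) and Sgk1 (r = 0.80, permutation p = 0.0189), both with an adjusted p of 0.164. In the 6 mice with low Cebpb, Cebpb ran against Mt2 (r = -0.92, rho = -0.94, permutation p = 0.00438 and 0.0165) and Mt1 (r = -0.87, rho = -0.71, permutation p = 0.02 and 0.136), again at an adjusted p of 0.164 for r. ADV mouse 28, with the highest Mt1 and Mt2, is 1 of these 6 mice.

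The median r over the 36 target pairs was 0.65 in LD and 0.37 in ADV, clusters included, and over the target pairs without a clustered gene it was 0.58 (15 pairs) and 0.30 (21 pairs). The difference between the groups was tested pair by pair, permuting the group labels of values centred and scaled within groups. Of 45 differences 6 had an unadjusted p under 0.05 and 0 passed adjustment, with 0.155 as the smallest adjusted p. The pair with the smallest p and no clusters in either group was Nr3c1 and Zbtb16, with r = -0.66 in LD and 0.23 in ADV (permutation p = 0.0103, adjusted 0.155). The groups were therefore not shown to differ in any single correlation.

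The ADV correlations of the metallothioneins depended on 1 mouse. Without ADV mouse 28 the median r of the target pairs in ADV was 0.49, and 12 pairs passed in place of 8. Mt1 and Glul went from r = 0.30 to 0.85 (rho = 0.85, permutation p = 8e-05, adjusted 0.0008, n = 15) and Mt2 and Glul from 0.08 to 0.67 (rho = 0.69, permutation p = 0.00618, adjusted 0.0214). The smallest adjusted p of a difference between the groups was then 0.349.

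**Figure D5:**
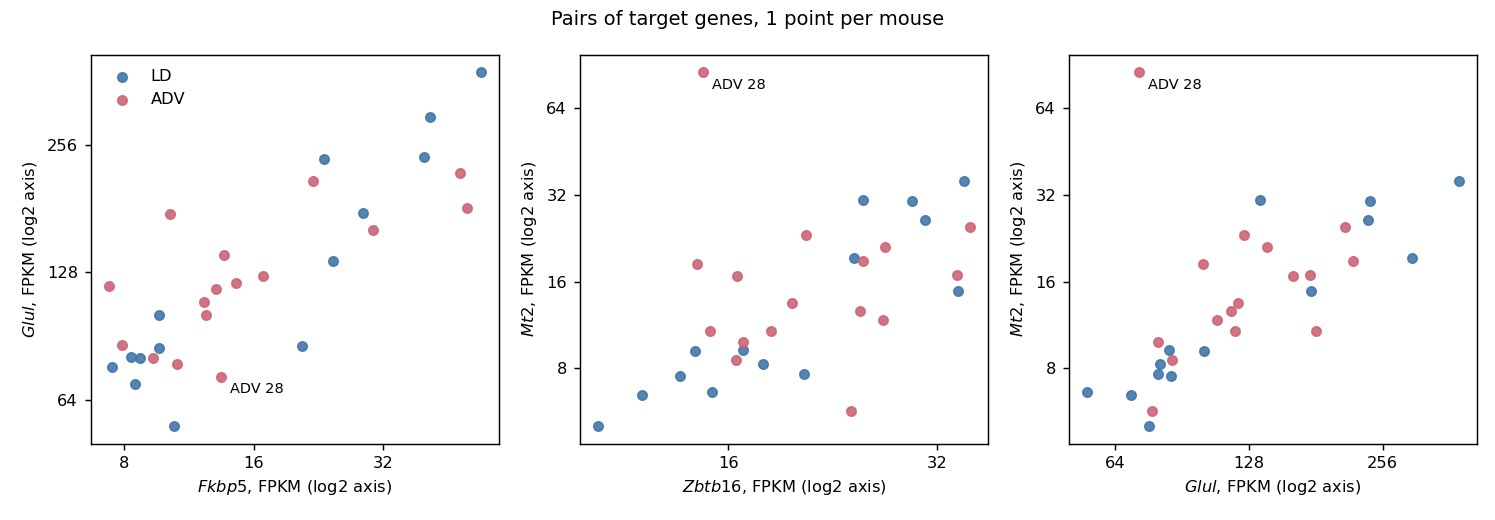
FPKM of 3 pairs of targets on log2 axes, 1 point per mouse, LD in blue and ADV in red. The LD mice form separate clusters in Fkbp5 and Mt2, and ADV mouse 28 lies far above the other mice in Mt2, at 85.3 FPKM, at the lowest ADV level of Glul.

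The LD values also moved with the label numbers of the mice, which run from 21 to 36 and whose meaning the labels do not give. Whether the numbers follow the hour of collection is not given either. In LD the number correlated with Nr3c1 at r = -0.78 (rho = -0.82, permutation p = 0.00098 and 0.00053, adjusted over 20 relations 0.0196 and 0.0106, n = 14), a larger absolute r than 99.7% of all genes tested, and r was -0.65 without the 2 mice of extreme number. Zbtb16 had r = 0.72 (rho = 0.67, permutation p = 0.0044 and 0.0109, adjusted 0.0293 and 0.069) and Sgk1 r = 0.65 (rho = 0.61, permutation p = 0.0123 and 0.0227, adjusted 0.0499 and 0.0704). Cebpb had r = 0.05 and Cebpd 0.12. For Fkbp5 the number went with the clusters. All 7 LD mice over 20 FPKM had numbers from 29 up, and the other 7 included all 6 mice numbered 21 to 28, whereas within the clusters r with the number was 0.30 and -0.15. In ADV r with the number lay between -0.24 and 0.33 for the 10 genes, with 0 of 10 passing (smallest permutation p of r 0.215). An absolute r over 0.5 with the number was seen in 15.9% of all genes in LD and in 4.4% in ADV.

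With the label number regressed out, an alternative added after the data were seen, 17 pairs passed in LD and 9 in ADV, and of the 24 LD pairs 15 still passed. None of the 5 negative LD pairs with Nr3c1 passed then. Nr3c1 and Zbtb16 stood at -0.22 (adjusted permutation p = 0.538) and Nr3c1 and Glul at -0.39 (adjusted permutation p = 0.251). Within the 6 LD mice numbered 21 to 28 the median r over the 45 pairs was 0.48 and within the 8 numbered 29 to 36 it was 0.58. In ADV these medians were 0.19 and 0.44, over 8 mice each. The sign of the 24 LD pairs was kept in 21 pairs among the lower numbers and in 24 among the higher ones.

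Other hormone targets ran with several of the 10 genes. A score of the 30 further hormone targets tested, the mean of their standardized log2 CPM, was compared with each of the 10 genes in each group, as 1 of 8 scores and 160 relations in all. The share of all tested genes that would pass with this score was not computed, so the counts below describe these mice. The comparison was also not repeated with the label number regressed out. In LD the score passed an adjusted p under 0.05 with 7 genes, of which Fkbp5 and Mt2 have clusters, and had a median r of 0.76. The highest were Glul (r = 0.89, rho = 0.89, permutation p = 6e-05 and 4e-05, adjusted 0.0032 for both) and Sgk1 (r = 0.87, rho = 0.85, permutation p = 3e-05 and 0.00019, adjusted 0.0032 and 0.0101), with 0.83 and 0.79 without the 2 extreme mice. In ADV it passed with 3 genes, and the median r was 0.56. Among them were Glul (r = 0.84, rho = 0.86, adjusted permutation p = 0.0032 for both) and Zbtb16 (r = 0.79, rho = 0.76, adjusted permutation p = 0.00987 and 0.0272). The other was Cebpd (r = 0.78), which has clusters in ADV. Fkbp5, Mt1 and Mt2 did not pass in ADV, at r = 0.40, 0.06 and -0.09. Nr3c1 did not pass in either group, at -0.46 in LD and 0.11 in ADV. The scores of chaperones, clock genes, immediate early genes, heat shock genes, adipocytes, Schwann cells and fibroblasts passed with 0 of the 10 genes in both groups, with median r from -0.36 to 0.51. No score was made for leukocytes, endothelium or muscle fibers, so their relation to the 10 genes was not tested. The LD clock score still had r = 0.59 with Nr3c1, -0.58 with Zbtb16 and -0.43 with Glul. Without the 2 mice of extreme score these were 0.81, -0.70 and -0.64. With Cebpb and Cebpd r was -0.06 each. The LD adipocyte score moved too, from -0.06 to -0.69 with Zbtb16.

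The genes whose pattern was most like each of the 10 were taken over all 30 mice after centring each group, from 12030 genes tested, and their r is a description that takes in the clusters named above. For Glul the first was Mir8114 at 0.99, a microRNA gene whose 93 annotated bases lie inside a Glul exon on the same strand, so the same reads may be counted for both. Usp54 and Foxo1, the latter a transcription factor of fasting and atrophy, followed at 0.90. Mt1 and Mt2 had each other at 0.95, followed by Nasp at 0.78 and 0.74, with Syt12 (0.78) next for Mt1 and Ptpn1 (0.73) for Mt2. Sgk1 was closest to the clock gene Per1 (0.81), which the hormone also induces, then to Arrdc2 (0.78) and Ddit4 (0.75). Cebpd was closest to Ddit4 (0.87), an inhibitor of mTORC1 signaling, then to Cebpb (0.82) and Gadd45g (0.82). Cebpb was closest to Cebpd (0.82), Mcl1 (0.78) and Hnrnpa0 (0.78). Tsc22d3 was closest to Slc25a25 (0.83), Arrdc3 (0.79) and Arrdc2 (0.78), Zbtb16 to Plin4 (0.85), Pkp4 (0.84) and Synj2 (0.84), and Fkbp5 to Rab7 (0.92), Ankrd9 (0.91) and Prodh (0.90). For Nr3c1 the nearest were Btaf1, Pla2g4a and Atp2c1, each at 0.87, and none of the 9 targets was among its 5 nearest.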

How the data were processed

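The authors removed adaptors (Trimmomatic), aligned the paired 101-base reads against GRCm39 (STAR, 2.7.10a in the submitters' processing notes), dropped poorly mapped alignments and summarized exon reads per UCSC canonical gene with HOMER (4.11 in those notes). The authors deposited estimated counts, of which 14.8% were not whole because each mate adds a fraction of a read, and FPKM, which equal count over exon length and library total to within 5.0e-04. The strand option of the counting is not given in the sources used here.

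The 30 libraries were grouped by their labels. Counts were rounded and, as in the study, the longest expressed isoform stood for a symbol. The 12030 genes averaging more than 20 reads, with FPKM above 0.5 on average, entered edgeR 4.0.16 (TMM, quasi-likelihood test, R 4.3.3), called at an FDR under 0.05. DESeq2 1.42.0 and limma 3.58.1 were alternatives. Reads on exons were 18875468.5 to 28512674 per library, and the library totals used for FPKM were 20636363.5 to 31246712.5. Genes near the limit of 20 reads carry large counting error. Correlations used numpy 2.4.6 and scipy 1.17.1, and GENCODE vM39 gave exons and overlaps. Tests were run on simulated data first.

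The 10 genes and all lists were chosen with earlier results of these data known. Beside the 10 genes, the text names list genes with an FDR under 0.05, the 3 most abundant genes of each pathway list, the 3 genes most like each of the 10, and genes that overlap them. The label number and the clusters of mice were examined after the data were seen. Alternatives were other size factors, filters, pseudocounts, summed isoforms, GC correction, a clock gene score, the label number as block or covariate, and leaving out each library. 1 gene of the pathway lists, counted in the totals, is not reported here.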

Additional observations from a re-analysis of the deposited data

How the results depend on the processing

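The number of the 10 genes called was 1 in place of 0 with DESeq2, with library size alone and with a minimum mean of 100 reads, Cebpb each time, and 0 to 1 without single mice. Over all genes 1301 calls became 604 with the GC trend removed, 0 with the clock gene score, and 835 to 1542 without single mice (fewest without LD mouse 28). Pathway genes called numbered 0 in place of 9 with the clock gene score, and 6 to 10 without single mice (fewest without ADV mouse 25). Genes that also passed the fold of 1.3, 252 in all, numbered 124 by limma with a pseudocount of 1, 167 after GC correction, 0 with the clock gene score, 137 with the block and 151 in the same 28 libraries without it. Pairs passing numbered 17 to 30 in LD (fewest without LD mouse 33, most without LD mouse 36) and 6 to 12 in ADV (fewest without ADV mouse 27, most without ADV mouse 28).

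Label numbers shared by both groups do not mark a stated pairing, and in 6 of 14 pairs the deviations correlated over 0.1 (-0.26 to 0.43), with 2 ADV libraries closest to the LD library of their number. With the replicate block 494 of all genes, 4 pathway genes and 0 of the 10 genes were called, against 616 of all genes in the same 28 libraries without the block. In those libraries without the block Hsp90aa1 (FDR 0.0738), Slc38a2 (FDR 0.0887) and Nrip1 (FDR 0.0891) were not called.

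Some signs turned. With the GC trend removed Nr3c1 stood at 0.05, Zbtb16 at -0.02, Hsd11b1 at 0.04 and Smarca4 at -0.06. With the clock gene score Glul stood at 0.29, Cebpg at -0.10, Hsd11b1 at 0.13, Mtf1 at -0.08, Nrip1 at 0.03, Slc39a10 at -0.06 and Txnip at 0.30. Hsd11b1 was 0.00 by limma at both pseudocounts, Smarca4 0.00 in the 28 libraries with and without the block, and Zbtb16 0.00 there without it. Without single mice Nr3c1 ranged from -0.06 to 0.00, Zbtb16 from -0.05 to 0.09, Mt2 from -0.08 to 0.44, Hsd11b1 from -0.05 to 0.04, Ncor1 from -0.04 to 0.00, Slc39a14 from -0.04 to 0.08 and Smarca4 from 0.00 to 0.03. The cause was not tested. Intervals as wide as that of Fkbp5 leave room for differences of either sign.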
